A study of Mus musculus with 6 samples.

Results

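The imprinting control regions (ICRs) of 10 loci, those named after H19, Kcnq1ot1, Snrpn, Peg3, Mest, Peg10, Nespas, Airn, Plagl1 and Meg3, were read in a table of CpG methylation in mouse embryonic stem cells (mESCs). The members were the windows of the table that overlap a fixed interval around each region, without use of any measured value, and they came to 23 of 359192 windows, at 9 of the 10 loci. Methylation had been profiled by enzymatic methyl-sequencing (EM-seq), which reads 5-methylcytosine and 5-hydroxymethylcytosine alike as methylated, in pure G1 and G2/M populations, with 3 biological replicates of each phase. The comparison of the phases asked whether methylation that is restored after DNA replication is complete before division. Both groups were E14TG2a mESCs of the inbred strain 129/Ola, grown on gelatin in serum with LIF, labelled with EdU, fixed in ethanol, stained for DNA content with propidium iodide and sorted by flow cytometry. The 2 groups differed in the sorted phase and shared everything else that the labels give. Each value is the percentage of CpG methylation over a window that the authors built from 100 CpG positions, a median of 51 CpG dinucleotides of the reference, so that windows are short where CpGs are dense and long where they are sparse. The table holds no read counts, so the depth behind a percentage is unknown. Values given for every library of a phase run in the order of replicates 1, 2 and 3.

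Genomic imprinting restricts expression of some genes to the copy inherited from the mother or from the father. An ICR carries DNA methylation set in the oocyte or in sperm on only the maternal or the paternal copy, and factors such as the zinc-finger protein ZFP57 with TRIM28 keep that mark through the reprogramming of the early embryo. The ICRs of H19 and Meg3 are methylated on the paternal copy and the others on the maternal copy. In an inbred line the parental copies have the same sequence, so a percentage averages both copies and all cells, and a mark on a single copy cannot be told apart from a mark on both copies in part of the cells.

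Coverage of the regions was uneven. The windows held all CpGs of the intervals at H19 (4 windows), Snrpn (2 windows), Peg3 (4 windows) and Meg3 (1 window), but 54.4% of those at Nespas (3 windows), 48.8% at Plagl1 (2 windows), 48.6% at Kcnq1ot1 (2 windows), 40.7% at Peg10 (3 windows) and 40.5% at Mest (2 windows). Airn, an antisense transcript within Igf2r, had no window. Its interval lay in a gap of 46370 bp between neighbouring windows that also held the start of Igf2r, and only 0.0869% of gaps between neighbours in the table were at least as long. The windows on either side of that gap read 80.8% ± 6.88 and 72.0% ± 12.1 (SD, n = 6). At Meg3, the intergenic region lay in a window of 325490 bp with 4100 CpGs in the reference, of which 1.23% of the length was the region, so its value describes the wider locus. The other 22 windows measured 974 to 8627 bp, with 49 to 58 CpGs each. Of these, 11 lay by at least 50% of their length inside an interval. Replicate 3 stood apart in both phases, with a mean over all windows of 68.8% (G1 and G2/M averaged) beside 62.5% for replicate 1 and 60.5% for replicate 2.

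The windows were searched for the core motifs of factors that read or keep imprints. The letters TGCCGC, read on the opposite strand as GCGGCA, are a core motif bound by ZFP57 when its CpG is methylated. They were found in 15 of the 22 windows (68.2%), against 38.9% of the 79022 windows of 1000 to 4000 bp and 11.6% of 32851 RefSeq promoters of 300 bases (GRCm38). The 22 windows measured 974 to 8627 bp, so these shares, and those of the other motifs below, are not matched for length. Counted per 100 CpGs there were 3.36 matches in the member windows and 0.964 in windows of 1000 to 4000 bp. A window at Snrpn, over a start of its transcripts, held 8 matches, a count reached by 4 of the 79022 windows, this window included. Windows at Nespas and Peg3 held 6 and 5. A core of the CTCF motif, CGNGGNGGC or on the opposite strand GCCNCCNCG, was found in 6 of the 22 windows (27.3%), against 21.7% of windows and 9.86% of promoters. The YY1 letters AAGATGGC or on the opposite strand GCCATCTT were found in 4 windows (18.2%), against 21.1% of windows and 2.75% of promoters. Yet 8 of the 14 matches lay in a single window of Peg3, and 2 of the 79022 windows held as many, this window included. In all there were 59 matches, with 2 overlaps between different motifs, and a match describes letters in the sequence and not a bound site.

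For 4 loci on which the results below turn, the 300 bases outside annotated exons with the most matches are shown, from GRCm38 on the plus strand, with matches in capitals. They are chr7:6729427-6729726 in the first intron of Peg3 (3 ZFP57 and 2 YY1 matches), chr7:60004573-60004872 within Snrpn (4 ZFP57 matches and 1 CTCF match), chr7:142580081-142580380 upstream of H19 (3 ZFP57 matches and 1 CTCF match, the latter overlapping a ZFP57 match) and chr6:4748199-4748498 within Peg10 (1 ZFP57 match and 29 CpGs).
Peg3: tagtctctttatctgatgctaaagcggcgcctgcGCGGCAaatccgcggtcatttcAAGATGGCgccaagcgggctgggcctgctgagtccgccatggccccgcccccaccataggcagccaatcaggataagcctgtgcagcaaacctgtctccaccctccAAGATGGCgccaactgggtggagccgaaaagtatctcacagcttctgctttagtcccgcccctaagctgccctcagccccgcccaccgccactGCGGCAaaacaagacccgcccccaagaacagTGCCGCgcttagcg
Snrpn: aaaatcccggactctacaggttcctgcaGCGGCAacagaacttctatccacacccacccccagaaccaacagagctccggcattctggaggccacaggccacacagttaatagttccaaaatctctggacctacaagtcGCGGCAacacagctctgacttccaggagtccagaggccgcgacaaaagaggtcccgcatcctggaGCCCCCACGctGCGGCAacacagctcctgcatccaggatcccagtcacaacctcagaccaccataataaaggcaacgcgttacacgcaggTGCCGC
H19: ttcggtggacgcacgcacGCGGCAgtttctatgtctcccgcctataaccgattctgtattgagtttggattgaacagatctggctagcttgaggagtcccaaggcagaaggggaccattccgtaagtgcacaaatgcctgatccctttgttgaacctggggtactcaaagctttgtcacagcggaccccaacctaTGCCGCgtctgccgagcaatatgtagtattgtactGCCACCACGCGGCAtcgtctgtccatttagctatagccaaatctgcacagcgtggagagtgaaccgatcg
Peg10: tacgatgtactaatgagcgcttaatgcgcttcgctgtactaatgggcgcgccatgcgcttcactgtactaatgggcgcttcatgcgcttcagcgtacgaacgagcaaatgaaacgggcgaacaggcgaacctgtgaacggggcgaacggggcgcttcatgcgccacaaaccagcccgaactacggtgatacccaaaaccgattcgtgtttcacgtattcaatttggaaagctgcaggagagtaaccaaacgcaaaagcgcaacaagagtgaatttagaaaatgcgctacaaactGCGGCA

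Averaged over its windows, methylation at the 9 loci ranged from 75.6% ± 4.97 at H19 to 34.1% ± 7.80 at Nespas (SD over 6 libraries, G1 and G2/M together). In between stood Plagl1 with 74.9% ± 3.05, Mest with 74.1% ± 7.69, Meg3 with 71.1% ± 5.99, Peg10 with 58.0% ± 6.51, Peg3 with 50.9% ± 8.73, Snrpn with 49.5% ± 5.40 and Kcnq1ot1 with 48.9% ± 5.49. The order held 2 steps that all 6 libraries showed. Meg3 exceeded Peg10 by 13.1 percentage points (2.04 to 21.7 over the libraries), and Kcnq1ot1 exceeded Nespas by 14.8 (3.11 to 31.4). The other neighbours in the order differed by less than the spread between libraries: the locus with the higher mean was the higher in 2 of 6 libraries for H19 over Plagl1 and Peg3 over Snrpn, in 3 for Plagl1 over Mest and Mest over Meg3, and in 4 for Peg10 over Peg3 and Snrpn over Kcnq1ot1.

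**Figure D1:**
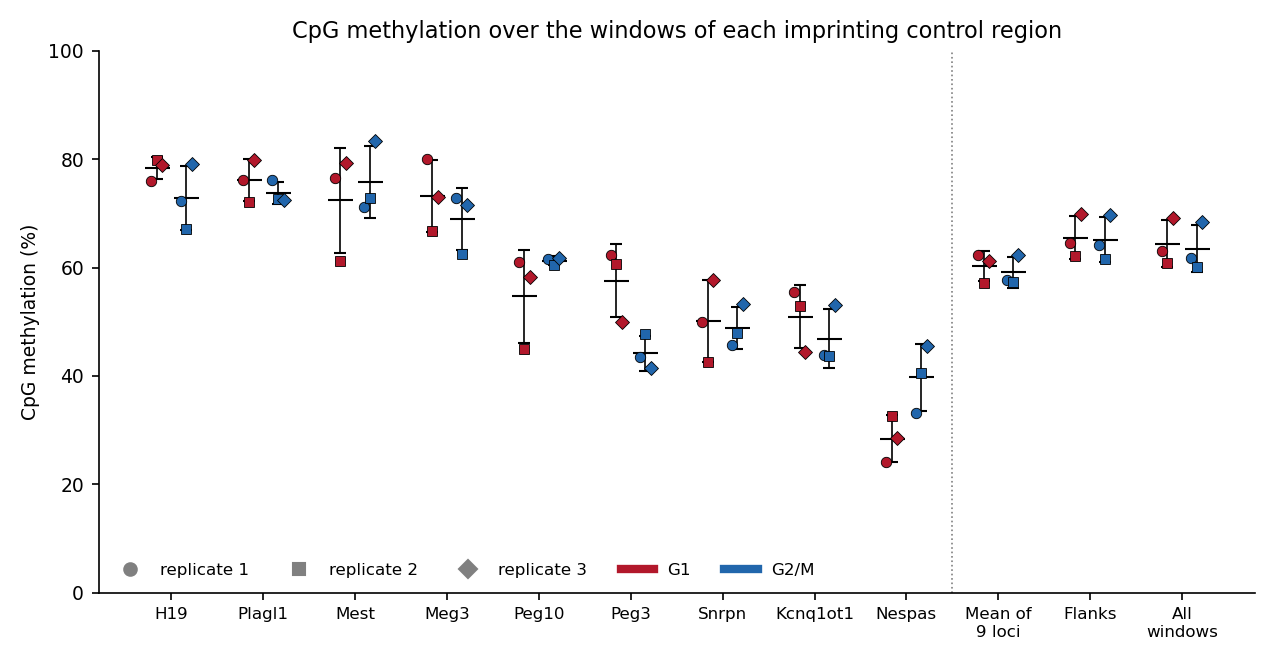
CpG methylation (%) of each ICR, as the mean over its windows, in 3 G1 (red) and 3 G2/M (blue) libraries, with the mean of the 9 loci, of their flanks and of all windows on the right. Symbols give the replicate, bars the mean and SD (n = 3). H19, Plagl1, Mest and Meg3 have means above 70%, Peg3, Snrpn and Kcnq1ot1 lie near 50%, Nespas is lowest with 34.1%, and G1 and G2/M libraries are apart without overlap at Peg3 and Nespas.

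On average, the 2 loci with a paternal mark stood above the maternally marked loci that had windows. H19 and Meg3 averaged 78.0%, 73.3% and 76.0% in the G1 libraries and 72.5%, 64.8% and 75.3% in the G2/M libraries. The 7 maternally marked loci with windows averaged 57.9%, 52.5% and 56.9% in the G1 libraries and 53.6%, 55.1% and 58.7% in the G2/M ones. The difference was 17.6 percentage points ± 4.09 (SD, n = 6) and above 0 in 6 of 6 libraries (two-sided exact sign-flip test, p = 0.03125, the smallest that 6 libraries can give). Taken as 3 means of same-numbered libraries, the same difference gave an exact p of 0.25, the smallest that 3 can give. These p-values measure the spread between libraries. With 2 loci against 7 they describe these loci and do not test paternal against maternal marks in general. The Meg3 value is moreover that of the wider locus. Without the long Meg3 window, H19 alone exceeded the maternal loci by 19.8. The division was not complete, since Plagl1 and Mest carry a maternal mark and read nearly as high as H19. Their windows held only 48.8% and 40.5% of the interval's CpGs, so the rest of these regions was not read. Of the lower loci, Kcnq1ot1, Peg10 and Nespas were also read in part, with 48.6%, 40.7% and 54.4%.

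Within each library the ICRs were less methylated than the sequence around them. The mean of the 9 loci minus that of the 5 windows on each side was -2.20, -5.08 and -8.74 percentage points in the G1 libraries and -6.30, -4.41 and -7.28 in the G2/M libraries. The mean was -5.67 ± 2.30 (SD, n = 6), below 0 in 6 of 6 libraries (two-sided exact sign-flip test, p = 0.03125). Over the 3 means of same-numbered libraries the exact p was 0.25. With windows at least 50% inside the regions, the difference was -9.31, but Kcnq1ot1, Snrpn and Meg3 had no such window and were left out. A few loci carried most of this difference. The difference was -23.0 points at Kcnq1ot1, with flanks of 71.9%, -21.6 at Peg3, with flanks of 72.5%, -8.15 at Peg10 and -5.95 at Snrpn, and each of these loci was below its flanks in all 6 libraries. Nespas, Meg3 and Mest differed from their flanks by -3.29, -3.39 and -1.97, with 4, 5 and 3 of 6 libraries below. H19 stood 4.51 above its flanks and Plagl1 11.9 above, and at Plagl1 no library was below. At Kcnq1ot1, Peg10, Plagl1 and Mest the windows held 48.6%, 40.7%, 48.8% and 40.5% of the interval's CpGs, so the unread part could differ. The Kcnq1ot1 windows lay 18.7% and 29.0% inside and the Snrpn windows 15.3% and 46.1%, so most of their length was outside the intervals.

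**Figure D2:**
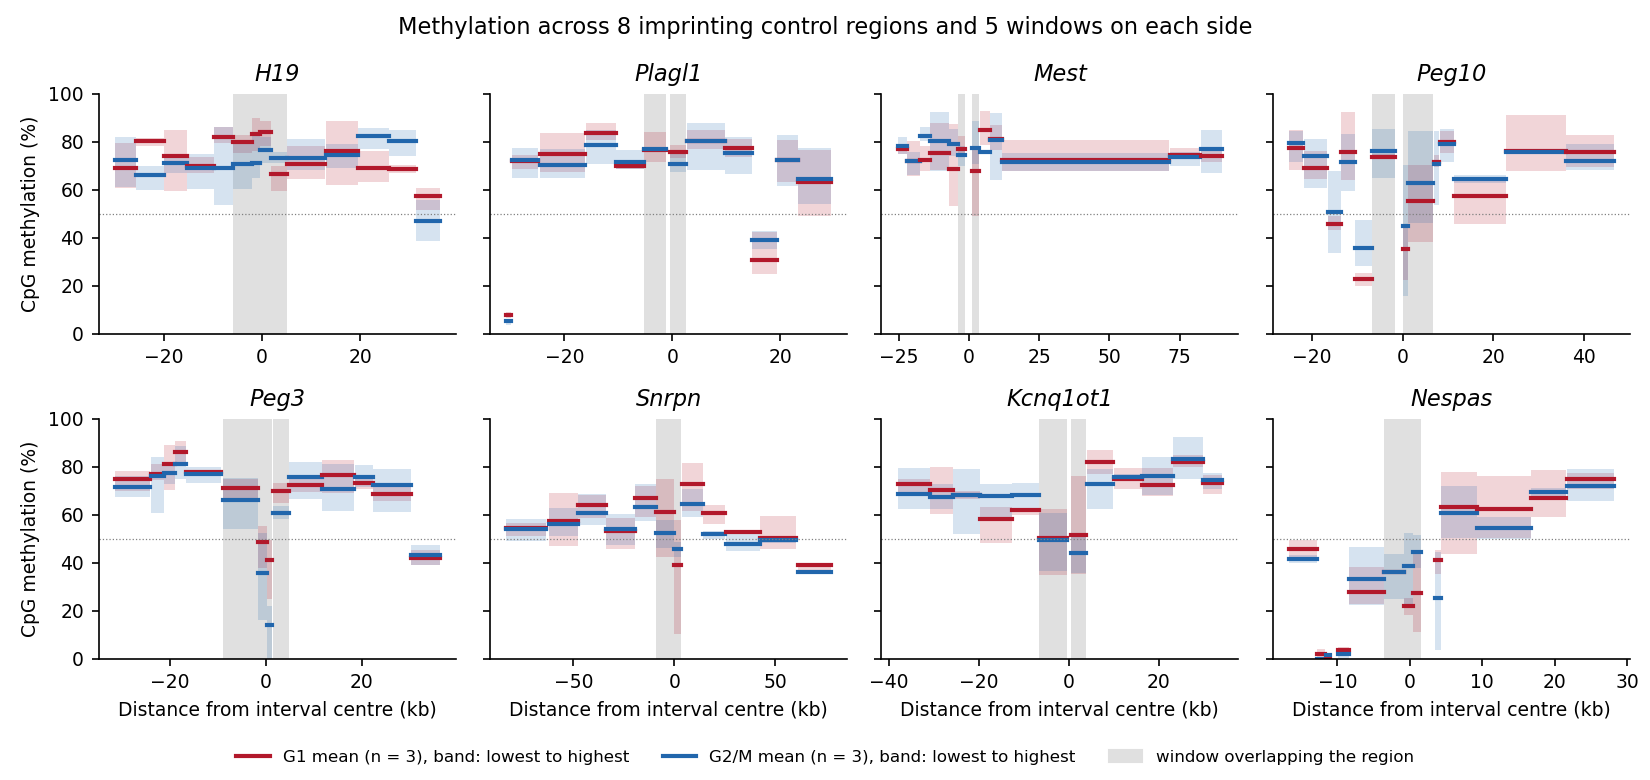
CpG methylation (%) along 8 ICRs and 5 windows on each side, against the distance from the interval centre in kb. Lines give the G1 (red) and G2/M (blue) means and bands the lowest to highest of 3 libraries, grey marks the windows that overlap the region and the dotted line 50%. Peg3 and Kcnq1ot1 dip between flanks that average 72.5% and 71.9%, though single flank windows lie lower. H19 and the parts of Plagl1 and Mest that windows cover show no dip. The windows hold 48.8% of the CpGs of the Plagl1 interval, 40.5% at Mest and 48.6% at Kcnq1ot1. Window positions are irregular because windows hold equal CpG numbers, and the long Meg3 window is left out.

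Windows lying mostly inside a region had the lower median level, but the sets also differed in their loci. Median methylation was 42.0% over the 11 windows lying at least 50% inside and 65.3% over the 11 others. All Nespas windows were among the former, all Kcnq1ot1 and Snrpn windows among the latter. Within loci, inside windows were lower at Peg3 (27.6% and 42.0% against 65.3% and 68.7%) and Peg10 (40.1% against at least 59.0%). The gap was small at Mest (72.5% against 75.7%) and Plagl1 (73.3% against 76.6%). H19 was mixed, at 69.6%, 77.1% and 80.3% against 75.2%. Position apart from locus was not tested. The CpG-dense members stood out by level. Of the 11212 windows of up to 2000 bp in the table, 69.8% had a mean under 20%, 21.6% a mean from 20% to 60% and 8.55% a higher one. Of the 6 member windows of that length, at H19, Peg3, Peg10 and Nespas, none was under 20% and 5 were from 20% to 60%, with H19 the exception at 77.1%. Over all 22 windows, 4 had a mean under 40%, 7 from 40% to 60% and 11 above 60%, against 7.92%, 16.6% and 75.4% of all windows.

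**Figure D3:**
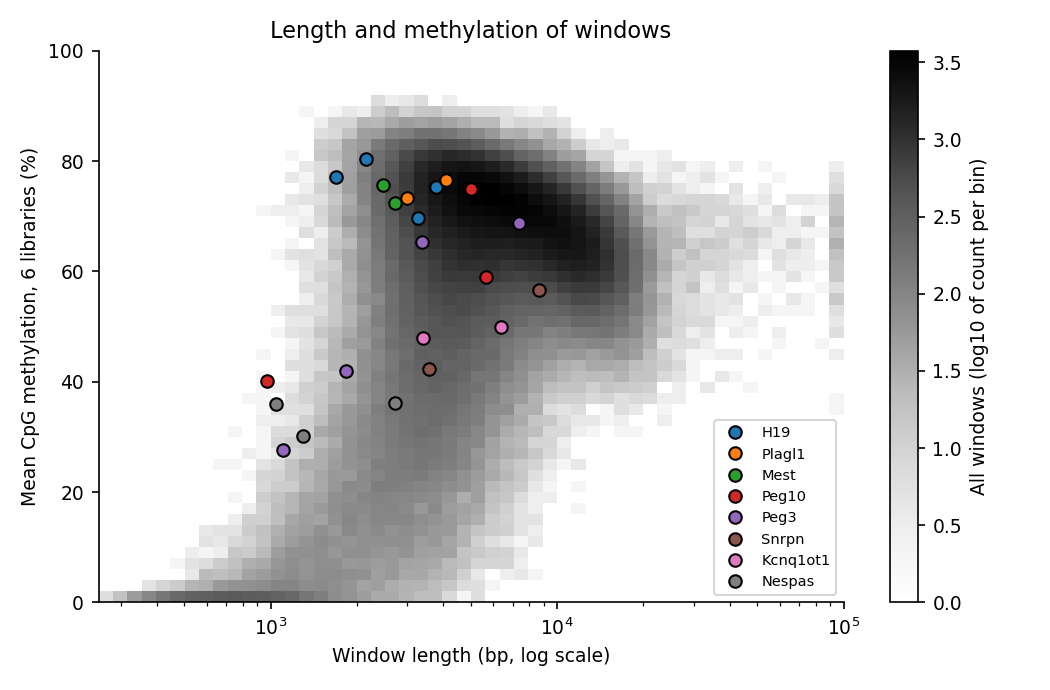
Mean CpG methylation (%, 6 libraries) of each window against its length (bp, log scale). Grey shading gives the number of windows of the whole table per bin (log10), with windows over 100 kb in the last column, and coloured points the 22 member windows other than Meg3. Short windows are mostly near 0%, while the 4 shortest member windows lie between 27.6% and 40.1%.

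The libraries scattered widely at the ICRs. The SD over 6 libraries had a median of 11.02 percentage points over the 22 windows, against 7.07 over all windows and 7.85 over windows of 1000 to 4000 bp. In 11 of the 22 the SD was above 10.7, which 10% of all windows exceed. It was larger in windows lying at least 50% inside a region (median 13.1) than in the others (median 8.42). Since coverage is unknown, the part of read sampling in this spread was not tested. The mean of the 9 loci was 60.1%, 57.2% and 61.8% for replicates 1, 2 and 3, with G1 and G2/M averaged. Replicate 3 exceeded the mean of the others by 7.21 points in G1 and 7.47 in G2/M over all windows and by 6.49 and 6.81 in the flanks, but by 1.40 and 4.88 at the ICRs. The shift was 10.5 and 11.4 at Mest and 11.4 and 6.41 at Snrpn, and it was -11.6 and -4.13 at Peg3. At Kcnq1ot1 the phases opposed each other, with -9.81 in G1 and 9.36 in G2/M.

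Between the phases, the mean of the ICRs did not differ beyond the spread between replicates. It was 62.4%, 57.1% and 61.1% in the G1 libraries and 57.8%, 57.3% and 62.4% in the G2/M libraries, so the groups overlapped. The group means were 60.2% ± 2.76 and 59.1% ± 2.83 (SD, n = 3), a difference of 1.06 percentage points (two-sided exact permutation test, p = 1, where 3 against 3 cannot go below 0.10), beside 0.872 over all windows. The sign of so small a difference depended on the choice of windows, loci and libraries. It was -0.24 with windows at least 50% inside, -0.016 after centring each library on the median of all windows, and -0.031 without G1 replicate 1. The first of these leaves out Kcnq1ot1, Snrpn and Meg3, which had no such window and differed by 4.08, 1.18 and 4.29. Taken against the mean of all windows, the difference of the 9 loci stayed above 0, at 0.185.

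Window by window, 0 of 23 passed limma's test at an adjusted p under 0.05, beside 0.00223% of all windows, and 1 of 23 had an unadjusted p under 0.05, beside 2.11%. In data simulated from this table the test recovered 0, 1 and 49 of 200 windows changed by 1, 2 and 4 on the log2 scale, so only very large differences could have been called. G1 had the higher mean in 13 of 23 windows (57.1% of all windows). In 2 windows the lowest G1 library exceeded the highest G2/M library (4.12% of all windows), and in 1 the highest G1 library stayed under the lowest G2/M library (1.98%). The median difference over the 23 was 2.68 percentage points, from -17.1 to 26.7, against 0.923 over all windows. These counts are near the background, and the locus and window differences below are therefore given as descriptions.

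**Figure D4:**
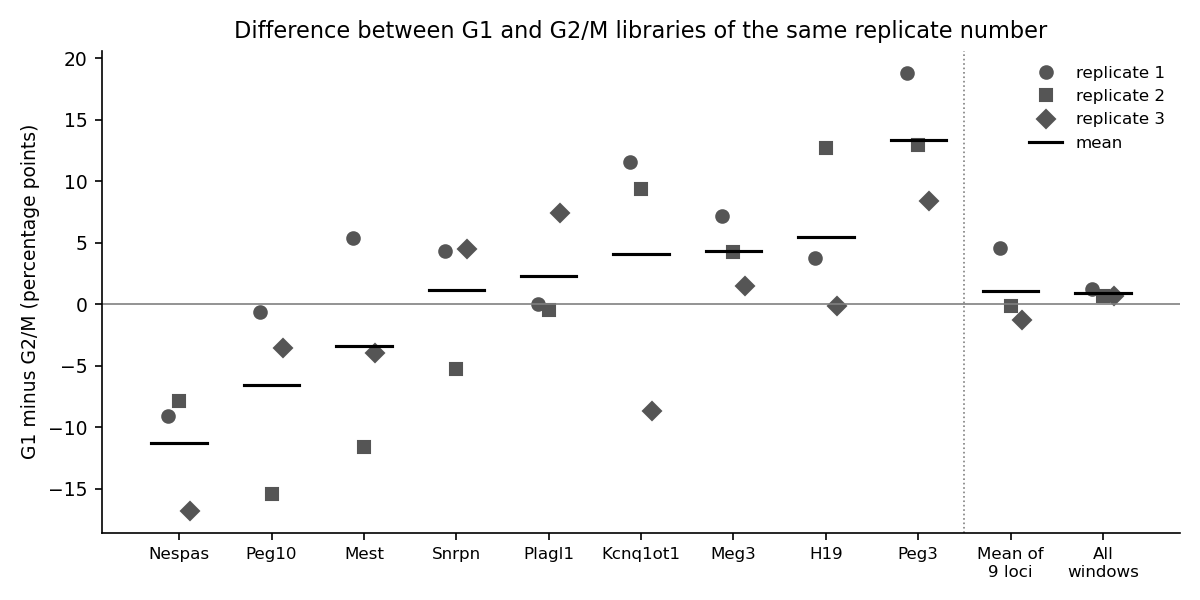
G1 minus G2/M methylation (percentage points) at each locus for the libraries of replicates 1, 2 and 3 (symbols) and their mean (bar), in order of the mean, with the mean of the 9 loci and of all windows on the right. All 3 pairs lie above 0 at Peg3 and Meg3 and below 0 at Nespas and Peg10.

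Peg3 had the largest excess in G1. Peg3 is a paternally expressed zinc-finger protein, and its promoter drives Usp29, a ubiquitin peptidase gene, in the opposite direction. Over its 4 windows methylation was 62.3%, 60.7% and 49.9% in the G1 libraries and 43.4%, 47.8% and 41.5% in the G2/M libraries. Each G1 library was above each G2/M library, with a mean difference of 13.4 points. The window with the starts of both genes (chr7:6729743-6730844, 1102 bp, wholly inside the region) read 48.5%, 49.3% and 25% in the G1 libraries and 22.0%, 20.7% and 0% in the G2/M ones. The matched differences there were 26.5, 28.6 and 25 points. Of all 359192 windows, 28 differed by as much or more in favour of G1, this window included, and 5 of those were up to 2000 bp long. On the scale of limma's test, the log2 ratio of methylated to unmethylated percentage, it was 2.88 ± 1.17 (SE) higher in G1 (unadjusted p = 0.0357, adjusted p = 1, from 0.894 to 1 over 12 alternatives). The listed 0% came from G2/M replicate 3, without which the difference was 1.28 (unadjusted p = 0.049). Leaving out G1 replicate 1 or 2 gave unadjusted p = 0.0824 and 0.0939.

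The other Peg3 windows varied. The window with 8 YY1 matches, in the first intron (chr7:6727893-6729726), read 52.5%, 55.2% and 37.8% in the G1 libraries and 16.0%, 52.4% and 38.2% in the G2/M libraries. The groups overlapped, and G2/M replicate 1 alone was low. Next to the gene starts on the Usp29 side (chr7:6730912-6734299, 32.1% of its length inside) G1 was above G2/M without overlap, with 73.1%, 64.9% and 71.5% against 60.2%, 63.7% and 58.3%. With windows at least 50% inside, the difference at the locus was 19.8 instead of 13.4.

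Nespas moved the other way. Its transcript runs antisense to the Nesp start of the Gnas locus, which encodes the stimulatory G protein alpha subunit and neuroendocrine secretory protein. Over 3 windows methylation was 24.1%, 32.7% and 28.6% in the G1 libraries and 33.2%, 40.5% and 45.5% in the G2/M libraries. Each G1 library was below each G2/M library, and the mean difference was -11.3 points. No single window showed this separation. At the Nespas start (chr2:174292984-174295708) the values were 35.7%, 35.8% and 36.8% in the G1 libraries and from 25% to 43.5% in the G2/M ones. The window with 6 ZFP57 matches (chr2:174295709-174297007) read 25.2%, 18.3% and 22.1% in the G1 libraries and 23.0%, 40.2% and 52.4% in the G2/M ones. It had the smallest p of the windows higher in G2/M (log2 ratio -1.09 ± 0.48, SE, limma's unadjusted p = 0.0514, adjusted p = 1, from 0.894 to 1 over 12 alternatives). The log2 difference was -0.67 without G2/M replicate 3. The last window (chr2:174297008-174298053), at a start of Gnas, read 11.3%, 43.8% and 27.0% in the G1 libraries and 51.6%, 37.9% and 44.0% in the G2/M ones, with overlap.

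At the H19 locus the values ran high in every window. H19 is a maternally expressed noncoding RNA, and on the unmethylated maternal copy CTCF bound at the region upstream insulates Igf2 from shared enhancers. The window with the gene start (chr7:142576878-142578573) read 83.7%, 89.7% and 76.2% in the G1 libraries and 64.7%, 65.5% and 83.0% in the G2/M libraries. G2/M replicates 1 and 2 were low and replicate 3 was not. The upstream window with the printed sequence (chr7:142578626-142580772, 1 CTCF and 3 ZFP57 matches) had the highest mean of all members, 80.3% ± 6.30 (SD, n = 6), with a range from 71.0% to 88.5%. The next window upstream (chr7:142580773-142584053) was the only member in which G1 stayed under G2/M in all libraries, at 59.6%, 69.4% and 69.9% against 75.8%, 72.1% and 70.9%. The locus difference was 5.44 points in favour of G1, with matched differences of 3.73, 12.7 and -0.132.

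Snrpn and Kcnq1ot1 read close to 50% with wide scatter, in windows lying 15.3% and 46.1% (Snrpn) and 18.7% and 29.0% (Kcnq1ot1) inside the intervals. Snrpn encodes a splicing protein of the Prader-Willi region. Its window with 8 ZFP57 matches (chr7:60004359-60007921) read 57.7%, 10.3% and 49.2% in the G1 libraries and 45.5%, 42.6% and 48.6% in the G2/M libraries, so that G1 replicate 2 alone was far below. In the neighbouring window (chr7:59995697-60004323) the same library was the highest, with 74.8% against 42.4% to 66.1% in the others. Kcnq1ot1 is the paternally expressed noncoding RNA whose transcription silences neighbours such as Cdkn1c in cis. The window with its start (chr7:143296010-143299423) read 76.1%, 43.6% and 35.5% in the G1 libraries and 51.3%, 35.6% and 45.7% in the G2/M ones. Here G1 replicate 1 stood apart. The locus differences of 1.18 at Snrpn and 4.08 at Kcnq1ot1 were smaller than the spread between replicates.

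Peg10, Mest and Plagl1 differed in how far the windows reached into the region. Peg10 derives from a retrotransposon and is expressed from the paternal copy, and the starts of Peg10 and of its neighbour Sgce fell between windows. The 974-bp window just downstream of the start (chr6:4748173-4749146) was the shortest and most variable member, with 39.1%, 22.2% and 44.1% in the G1 libraries and 49.0%, 70.1% and 15.8% in the G2/M libraries (SD 19.5, n = 6). The lowest and the highest value were both in G2/M. At the locus G1 was lower in 3 of 3 pairs, with a mean difference of -6.54 points, or -13.6 with the median over windows in place of the mean. The matched differences were uneven, at -0.62, -15.4 and -3.57.

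Mest encodes a hydrolase-like protein expressed from the paternal copy. Its window chr6:30738381-30741109, 59.4% inside, read 77.6%, 48.9% and 76.6% in the G1 libraries and 72.2%, 70.8% and 88.7% in the G2/M libraries. G1 replicate 2 alone was low, and the locus difference was -3.41. Plagl1 encodes a zinc-finger transcription factor. Its window chr10:13091121-13094115, 62.8% inside, was among the most even, with 78.5%, 73.0% and 75.9% in the G1 libraries and 75.4%, 69.7% and 67.2% in the G2/M ones. The locus difference was 2.33. At Peg10, Mest and Plagl1 under 50% of the interval's CpGs lay in a window, so these levels describe only part of each region. The long window with Meg3, a maternally expressed noncoding RNA, read 79.9%, 66.7% and 73.1% in the G1 libraries and 72.8%, 62.4% and 71.6% in the G2/M ones, higher in G1 in 3 of 3 pairs by 4.29 on average, with overlap of the groups.

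The genes that these ICRs control in cis were read at the window holding the gene start. Of 25 such genes 15 had a window, 4 of them inside a member window (Usp29, and Dlk1, Rtl1 and Rian in the long Meg3 window), which left 11 with windows of their own. Their levels spanned the whole scale. Klf14 averaged 0.964% and the Gnas start 0.970%, Magel2 16.1%, Zim1 33.0%, Ndn 33.2%, Slc22a18 42.5%, Slc22a3 49.3%, Kcnq1 65.2%, Igf2 73.1%, Slc22a2 76.1% and Mirg 86.1%. Thus 3 were under 20%, 2 from 40% to 60% and 4 above 60%. The mean over genes counts the Meg3 window 3 times, once for each gene that starts in it. Averaged over the 15 genes, methylation was 49.8% ± 2.06 in the G1 libraries and 45.9% ± 2.41 in the G2/M ones (SD, n = 3), a difference of 3.90 points (two-sided exact permutation test, p = 0.20). Outside member windows it was 1.71 (exact permutation p = 0.50). By limma's test 0 of the 11 had an adjusted p under 0.05 and 1, Gnas, an unadjusted p of 0.0246, higher in G1 at 4.00%, 0% and 1.82% against 0% in each G2/M library.

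Imprinted genes of other loci were also spread out, at 6 of 7 genes with a window. Nnat averaged 72.7%, Grb10 65.1%, Mcts2 31.5%, Zrsr1 30.9%, Slc38a4 15.2% and Rasgrf1 0.701%. Their mean was 32.7% ± 6.85 in the G1 libraries and 39.3% ± 5.99 in the G2/M ones (SD, n = 3), a difference of -6.53 (two-sided exact permutation test, p = 0.30). No gene start had a limma p under 0.05 there. Among the listed imprinted genes, Grb10, an adaptor of growth factor receptors, was the most like the mean of the 9 ICRs, with a mean absolute difference of 6.87 points over 6 libraries, followed by Kcnq1 with 7.32 and by Dlk1, Rtl1 and Rian with 11.4, which share the Meg3 window. The next imprinted gene with a window of its own was Slc22a3 with 12.7. Of the genes listed for other reasons, Zfp445 (4.69) and Pou5f1 (8.93, in a long window) also came close to that mean.

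Genes for factors that keep or read imprints had windows at 4 of 6 starts. Zfp445, which acts beside Zfp57 in imprint maintenance, averaged 64.4%, the corepressor Trim28 73.0%, the histone methyltransferase Setdb1 44.1% and Dppa3, which protects maternal methylation in the zygote, 42.2%. Their mean differed by 1.65 points between the phases (two-sided exact permutation test, p = 0.60), and 0 of 4 had a limma p under 0.05. As a check of the labelled cell type the table offers only methylation and no expression. Of 4 stem cell genes, Sox2 and Zfp42 had no window at the start and Pou5f1 lay in a window of 188569 bp with 55.0%. The start of Nanog, a core pluripotency factor, was low, at 17.6%, 19.1% and 22.7% in the G1 libraries and 6.64%, 10.8% and 6.38% in the G2/M ones (limma's unadjusted p = 0.00135, adjusted p = 1). The mean of Nanog and Pou5f1 differed by 6.56 points (two-sided exact permutation test, p = 0.40).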

How the data were processed

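The libraries were EM-seq libraries of sorted mESCs, with 3 biological replicates of G1 and 3 of G2/M. Per the paper's methods and the submitters' processing notes, reads were trimmed (Trim Galore 0.6.4), mapped to GRCm38/mm10 with Bowtie2 in Bismark 0.22.1 and deduplicated, and reads of MAPQ under 20 or in outlier regions were discarded. The deposited values are the percent of CpG methylation that the authors computed per window and library, and no normalization between libraries is stated. All 6 columns were used, and no coverage minimum could be tried. Depth is unknown, so no interval of a single value was computed.

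Windows were matched to loci by coordinates, and sequences and annotation were read from the GRCm38 RefSeq genome and GENCODE vM21. Of all windows, 99.6% began at a CpG of that genome. Window values were averaged per locus and library, and then over loci, with the library as the unit. Tests over libraries were two-sided and exact (permutation or sign-flip). The windows went through limma 3.58.1 (R 4.3.3, lmFit and eBayes with a trend) on log2((percent + 1)/(100 - percent + 1)), with Benjamini-Hochberg adjustment over all 359192 windows at 0.05. The step was tested on simulated data. Python 3.11.15, numpy 2.4.6, pandas 2.3.3, scipy 1.17.1 and matplotlib 3.10.9 were used.

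Replicates of the same number were treated as matched, as the paper does and the labels number them. Deviations from the group means correlated at 0.0274, 0.031 and 0.0549 between same-numbered libraries and at -0.0299 to -0.0014 between others. Per the study's reporting summary, experiments were repeated independently, with shared reagent lots where possible. P-values measure the spread between these replicates. The members, gene lists, motifs and tests were chosen with earlier results of these data known. Named are all 10 loci, per locus the window lying most inside the region, the member with the lowest limma p for either direction, and the 3 listed imprinted genes most like the mean of the ICRs. Windows named beyond that rule were chosen after their values were seen. Alternatives were other choices of windows and flanks, centring, another offset, the percent scale, filters on the mean, no trend, the replicate block and leaving out each library. Those without the long Meg3 window and without genes in member windows were chosen after seeing the data.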

Additional observations from a re-analysis of the deposited data

How the results depend on the processing

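The difference of the ICR mean between phases was 1.06 percentage points, with p from 0.40 to 1 over 14 alternatives. It turned to -0.24 with windows at least 50% inside (which leaves out Kcnq1ot1, Snrpn and Meg3), to -0.016 after centring of libraries and to -0.0309 without G1 replicate 1. Leaving out each library in turn it ranged from -0.0309 to 2.68. With the replicate number as a block it was 1.06 (exact sign-flip test over 3 pairs, p = 1), and the block, also for the gene starts (3.90, p = 0.25) and the windows (1 unadjusted, 0 adjusted), changed no call between phases. The cause of these turns was not tested.

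The number of member windows with an unadjusted limma p under 0.05 was 1 (2.11% of all windows). It was 2 with an offset of 5 (2.16%), 3 on the percent scale (2.21%), 4 after centring on that scale (5.02%) and 3 among windows with a mean from 10% to 90% (2.30%). Leaving out each library it was 1 to 4 (1.49% to 3.76%), where the removal of G2/M replicate 3 gave 4 (3.76%), that of G1 replicate 3 gave 2 (3.04%) and that of the first or second G2/M replicate gave 2 (1.49% and 1.79%). The number with an adjusted p under 0.05 was 0 in all 12 alternatives.

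The difference from the flanks kept its sign in all 12 alternatives. It was -5.67 with an exact p of 0.25 over means of same-numbered libraries, and -6.36 to -5.05 leaving out each library, with an exact p of 0.0625, the smallest that 5 libraries can give. It was -9.31 with windows at least 50% inside (which leaves out Kcnq1ot1, Snrpn and Meg3), and -6.04 and -7.23 with 3 or 10 flanking windows. The excess of the paternally marked loci also kept its sign in 10 alternatives, at 17.6 with an exact p of 0.25 over such means and 16.9 to 19.1 leaving out each library (exact p = 0.0625). The cis gene starts kept direction and side in 10 alternatives. Percentages without coverage leave the error of single windows unknown, and a coverage minimum was not run.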
